A study of Mus musculus with 2 samples.

Results

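The 7 genes described here handle iron and haem: Tfrc, Fth1, Ftl1, Slc40a1, Hmox1, Alas1 and Fech. They were taken by symbol from the 32285 genes counted in 2 Visium sections of injured mouse heart, and all 7 were found. They were chosen with earlier results of these libraries in view, so their values are given as a description, with no test, and are not offered as support for anything. Visium captures polyadenylated RNA from a tissue section on a grid of barcoded spots, each of which can hold several cells of different types. The PD1 Het section (genotype +/- in the labels) and the PD1 KO section (-/-) each came from a C57BL/6 mouse. PD1 is the immune checkpoint receptor encoded by Pdcd1, and how its allele was made is not given in the sources used here. In both mice the left anterior descending artery was ligated at postnatal day 2, and the heart was frozen 7 days later. A 10 µm transverse section was taken 200 µm below the suture and permeabilized for 18 min. There was neither an uninjured nor a wild-type heart, so the groups share the infarction and at least 1 altered Pdcd1 allele. With 1 section per group there are no replicates, and every interval below covers counting error only.

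Cells take up iron when transferrin binds its receptor, Tfrc, and enters by endocytosis. Iron that is not used is stored in ferritin, a shell built from heavy chains (Fth1), which oxidise iron, and light chains (Ftl1), which help it mineralise. Ferroportin (Slc40a1) is the only known iron exporter of mammalian cells, and macrophages that clear dead cells and red cells use it to return iron to the circulation. Haem oxygenase 1 (Hmox1) opens the haem ring and frees its iron, while Alas1 catalyses the first and rate-limiting step of haem synthesis outside the erythroid lineage and Fech inserts iron in the last. Cardiomyocytes spend much of their iron on mitochondrial haem and iron-sulphur proteins and on myoglobin.

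Members of the set are tied together by the iron responsive element, a hairpin in messenger RNA that iron regulatory proteins bind when iron is low. In a 5′ UTR it blocks translation, and in the Tfrc 3′ UTR it protects the message from decay, so it acts on the message level of Tfrc and on the protein output of ferritin and ferroportin. A search of the GRCm38 transcripts for the loop CAGTGN, with a C 5 bases before it and paired bases on both sides, found such an element in a UTR of 4 of the 7 members. Over all 21901 genes searched, 0.142% held one in a 5′ UTR and 0.589% in a 3′ UTR. The 3 elements in a 5′ UTR are shown first, because the heavy and light ferritin messages carry nearly the same one while their messages were distributed differently over these sections. Capitals mark the bulged C and the 6 bases of the loop.
Fth1: tcctgCttcaaCAGTGCttgaacggaac
Ftl1: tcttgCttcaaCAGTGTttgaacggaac
Slc40a1: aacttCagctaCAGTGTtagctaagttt
They lie at chr19:9982733-9982760 (plus strand, Fth1), chr7:45459779-45459806 (minus strand, Ftl1) and chr1:45925465-45925492 (minus strand, Slc40a1). The Fth1 and Ftl1 elements share 26 of 28 bases and differ by C3T and C17T, with positions counted from the 5′ end of the printed run and the Fth1 base first. The Tfrc 3′ UTR held 4 elements that met the same criteria, shown in their order along the message.
Tfrc element 1: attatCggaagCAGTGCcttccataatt
Tfrc element 2: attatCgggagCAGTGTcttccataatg
Tfrc element 3: tatatCggagaCAGTGAtctccatatgt
Tfrc element 4: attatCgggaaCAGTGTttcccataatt
They lie on the plus strand at chr16:32631220-32631247, chr16:32631599-32631626, chr16:32631664-32631691 and chr16:32631711-32631738. No element of this form was found in a UTR of Hmox1, Alas1 or Fech, which says only that these letters are not there.

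The deposited counts give the depth behind each value. After spots with fewer than 500 UMIs (unique molecular identifiers, 1 per captured transcript) were left out, 811 of 812 spots of the PD1 Het section and 851 of 859 of the PD1 KO section remained. They held 12814494 and 23520499 UMIs, with a median of 15475 and 27134 per spot. Pdcd1 had 0 UMIs in both sections, which allows up to 0.234 and 0.128 CPM (UMIs of a gene scaled to 1000000 UMIs in all), so it says nothing about the labels. The sections also differed in the share of mitochondrial UMIs (25.6% and 15.9%). They differed in Xist (541 UMIs and 1) and in Y-linked genes (1 UMI and 2900), so the animals differed in sex as well as in genotype, and sex, depth, section and genotype cannot be told apart. The sections had 225 spot barcodes in common, which Visium slides reuse by design. All 12 ventricular cardiomyocyte markers and all 14 macrophage markers were detected in both sections. Cardiomyocyte markers made up 6.97% of UMIs in the PD1 Het section, against 7.27% in the PD1 KO section, as the cardiac label implies.

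Relative to the median gene, the PD1 KO section had more Tfrc and Alas1 message and less of both ferritin chains. Of 11455 genes with at least 100 UMIs in the sections together, the median gene had a CPM 1.26-fold higher in the PD1 KO section, a log2 shift of 0.33. Every log2 ratio below was taken after subtracting this shift and is called a relative log2 ratio, while levels are in CPM. All 7 members had at least 100 UMIs, and 4 of them lay at least 1.5-fold from the median gene, namely 2 above it and 2 below it. Over all 11455 genes the same fold was passed upwards by 5.5% and downwards by 3.3%. The median relative log2 ratio of the 7 members was 0.01, beside 0 for all genes by construction. In sums over a section, more cells of a type and more RNA per cell cannot be told apart.

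**Figure D1:**
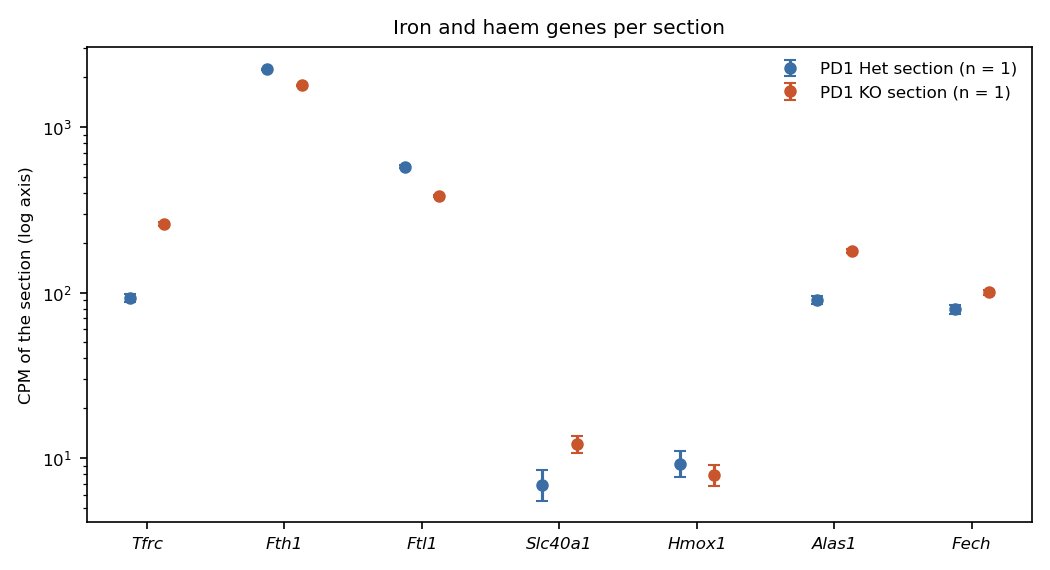
Level of each of the 7 genes in the PD1 Het section (blue) and the PD1 KO section (orange), in CPM on a log axis, with exact 95% Poisson intervals for counting error. Tfrc (92.8 and 261 CPM) and Alas1 (90.1 and 179 CPM) stand higher in the PD1 KO section and Ftl1 (576 and 384 CPM) stands lower, while heights of different genes are not comparable because they are not per length.

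Uptake was represented by Tfrc (ENSMUSG00000022797, chr16:32608920-32632794, plus strand). The PD1 Het section held 1189 Tfrc UMIs, or 92.8 CPM (95% interval 87.6 to 98.2), and the PD1 KO section 6135, or 261 CPM (254 to 267). The message was seen in 546 of 811 and 839 of 851 spots, with at most 12 and 25 UMIs in a spot. The lower quartile of spots was 0 CPM and the upper quartile 138 CPM in the PD1 Het section, against 164 and 328 CPM in the PD1 KO section. These quartiles rest on a median of 1 and 7 Tfrc UMIs per spot, at unlike depth, and spots are not replicates. The CPM ratio was 2.81 (2.64 to 2.99) and the relative log2 ratio 1.16 (1.07 to 1.251), above that of 99.3% of the genes.

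To place the genes in the tissue, each section's spots were ordered by the UMI share of 12 cardiomyocyte, 14 macrophage or 4 haemoglobin genes and divided into 5 bins of equal size, bin 1 lowest and bin 5 highest. From bin 1 to bin 5 of cardiomyocyte share, Tfrc was 96.8, 93.6, 88.2, 89.9 and 95.9 CPM in the PD1 Het section. The PD1 KO section had 190, 259, 274, 277 and 293 CPM. Along cardiomyocyte share Tfrc was thus level in the PD1 Het section and lowest in the cardiomyocyte-poorest bin of the PD1 KO section. With macrophage share it was lower in the upper bins of both sections, at 100.1, 104, 96.7, 76.9 and 84.3 CPM in the PD1 Het section. The values in the PD1 KO section were 287, 296, 257, 257 and 192 CPM. The relative log2 ratio of bin 5 to bin 1 was 0.65 (0.53 to 0.78) for cardiomyocyte share and -0.79 (-0.92 to -0.66) for macrophage share in the PD1 KO section. In the PD1 Het section it was -0.12 (-0.39 to 0.14) and -0.44 (-0.72 to -0.17). The difference between the sections in these gradients was not tested. With 10 bins in place of 5, the macrophage value of Tfrc was -1.06 for PD1 Het and -1.02 for PD1 KO, both past the fold. With 3 bins in place of 5 the PD1 KO cardiomyocyte value was 0.40 and the macrophage value -0.57, both under the 1.5-fold mark, and the plain CPM ratio gave -0.58 for macrophage share, also just under it.

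**Figure D2:**
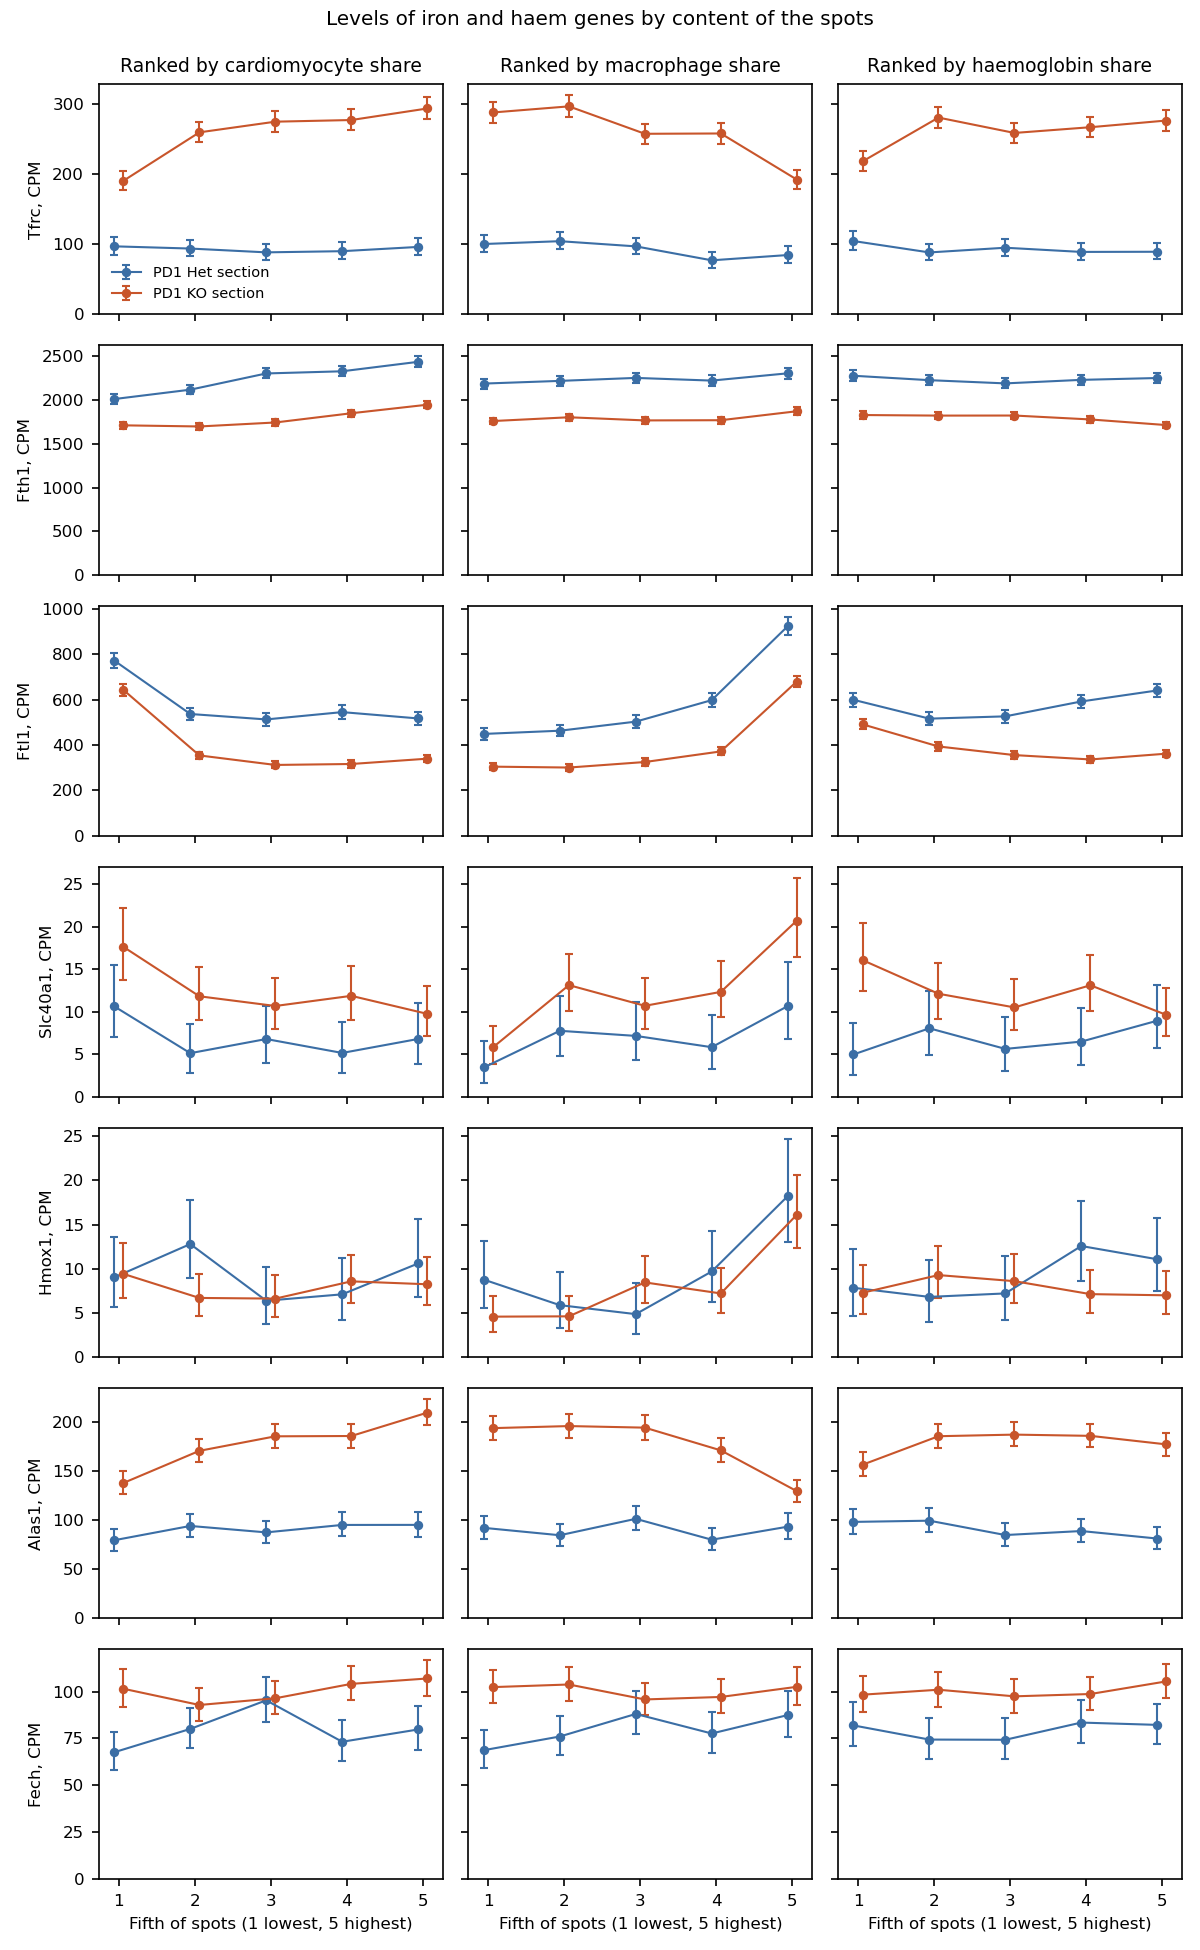
Level in CPM (vertical axes, starting at 0) of each gene, 1 per row, in 5 equal bins of spots ranked by cardiomyocyte, macrophage or haemoglobin share (columns), for the PD1 Het (blue) and PD1 KO (orange) sections with exact 95% Poisson intervals. Ftl1 climbs to 922 and 679 CPM in the bin with most macrophage markers, where Tfrc and Alas1 of the PD1 KO section are at the lowest of their 5 bins in that ranking, 192 and 129 CPM.

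Storage was represented by both ferritin chains, and both were lower in the PD1 KO section. Fth1 (ENSMUSG00000024661, chr19:9980598-9985098, plus strand) had 28652 UMIs, or 2236 CPM (2210 to 2262), in the PD1 Het section, against 42138, or 1792 CPM (1774 to 1809), in the PD1 KO section. It was present in every spot of both, with a lower and upper quartile of 1915 and 2570 CPM over PD1 Het spots and 1570 and 2005 CPM over PD1 KO spots. The ranges overlap, and the CPM ratio of the sections was 0.801 (0.789 to 0.813). The relative log2 ratio was -0.65 (-0.67 to -0.63). It rests on the median shift, since the plain CPM ratio gave a log2 value of -0.32 and a total without mitochondrial genes gave -0.50, both under the 1.5-fold mark.

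Ftl1 (ENSMUSG00000050708, chr7:45457944-45459884, minus strand) had 7382 UMIs, or 576 CPM (563 to 589), in the PD1 Het section, against 9029, or 384 CPM (376 to 392), in the PD1 KO section. It was seen in 805 of 811 and 850 of 851 spots and reached 71 and 159 UMIs in a spot. It was thus spread across both sections, with single spots far above the median of 8 and 9 UMIs. The CPM ratio was 0.666 (0.646 to 0.687) and the relative log2 ratio was -0.92 (-0.96 to -0.87), among the lowest 0.672% of genes. Of the 31-base stretches in the last 400 bases of Ftl1 messages, 85.6% also occur in another gene's transcripts. Ftl1-ps1, a counted gene of the same family on chromosome 13, holds 76.9% of the Ftl1 stretches. How the counting treated reads from shared stretches is not given in the sources used. Such reads could be split between genes or left uncounted, and a sum over genes restores only the former. Ftl1-ps1 had 104 and 430 UMIs (8.12 and 18.3 CPM), and adding it to Ftl1 gave 584 and 402 CPM with a relative log2 ratio of -0.87 (-0.91 to -0.83). Of the Fth1 stretches 14.3% occur in another gene's transcripts and 0 in another counted gene.

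Ftl1 differed with place in both sections. Along macrophage share, from bin 1 to bin 5, it was 449, 463, 503, 597 and 922 CPM in the PD1 Het section. Those of the PD1 KO section were 305, 301, 325, 372 and 679 CPM. Most of the climb therefore lay between bins 4 and 5 in both sections. The relative log2 ratio of bin 5 to bin 1 was 0.84 (0.74 to 0.95) and 0.95 (0.86 to 1.04). With cardiomyocyte share it was highest in bin 1, at 771, 536, 512, 545 and 517 CPM in the PD1 Het section. The PD1 KO values were 642, 354, 312, 316 and 339.7 CPM. The relative log2 ratio of bin 5 to bin 1 was -0.69 (-0.79 to -0.58) and -0.89 (-0.98 to -0.80). In the PD1 Het section 3 bins gave -0.43 and the plain CPM ratio -0.58, both under the 1.5-fold mark.

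Fth1 differed by less than 1.5-fold with either cell type. Along macrophage share it went from 2189 to 2306 CPM for PD1 Het and from 1761 to 1872 CPM for PD1 KO. With cardiomyocyte share it went from 2012 to 2437 CPM and from 1711 to 1947 CPM. The relative log2 ratios of bin 5 to bin 1 lay between -0.12 and 0.22, all within 1.5-fold. For macrophage share the ratio was -0.12 in both sections although CPM rose, so its direction depends on the scaling. Ranked by scar matrix share, Fth1 gave -0.42 (PD1 Het) and -0.29 (PD1 KO), also within 1.5-fold.

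The bins that differ in macrophage share differ in more than macrophages. From bin 1 to bin 5 of macrophage share, the share of 10 scar matrix genes, such as collagens and periostin, went from 0.452% to 0.910% of UMIs in the PD1 Het section, against 0.587% to 1.71% in the PD1 KO section. The median UMIs per spot went from 16478 to 13996 and from 28671 to 23659, and the mitochondrial share from 28.6% to 20.6% and from 18.2% to 12.05%. The cardiomyocyte share itself went from 7.06% to 6.65% and from 7.42% to 6.35%. Ranked by scar matrix share, Ftl1 gave nearly the same values, with a relative log2 ratio of bin 5 to bin 1 of 0.82 (PD1 Het) and 0.97 (PD1 KO). Tfrc gave -0.86 and -1.10 in that ranking and Alas1 -0.63 and -1.04. Ftl1 was thus past the fold upwards and Tfrc and Alas1 downwards in both sections, where 11.5% of all genes were higher and 5.56% lower (PD1 Het) and 11.4% higher and 7.72% lower (PD1 KO). The parts that matrix, depth and mitochondrial share have in the macrophage gradients were not tested. From bin 1 to bin 5 of cardiomyocyte share, that share itself went from 5.48% to 8.32% (PD1 Het) and from 5.49% to 8.38% (PD1 KO). Scar matrix share went from 1.01% to 0.409% and from 1.86% to 0.501%. Haemoglobin share went from 1.70% to 0.404% and from 0.974% to 0.543%, and mitochondrial share from 27.5% to 20.1% and from 15.1% to 12.5%. Their parts in the cardiomyocyte gradients were not tested either.

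The ratio of Ftl1 to Fth1 UMIs was compared between places. It was 0.258 (0.251 to 0.264) in the PD1 Het section, against 0.214 (0.209 to 0.219) in the PD1 KO section. Reads of Ftl1, unlike those of Fth1, could be split with another counted gene, Ftl1-ps1, or left uncounted. Adding Ftl1-ps1 gave 0.261 (PD1 Het) and 0.224 (PD1 KO), and it was not added within bins. From bin 1 to bin 5 of macrophage share the ratio went from 0.205 (0.192 to 0.218) to 0.400 (0.380 to 0.421) in the PD1 Het section. In the PD1 KO section it went from 0.173 (0.164 to 0.183) to 0.363 (0.347 to 0.379). With cardiomyocyte share it went from 0.383 to 0.212 and from 0.375 to 0.1745. The macrophage-rich and cardiomyocyte-poor spots of both sections thus held more light chain message per heavy chain message. In the cardiomyocyte-poorest bin the intervals of the sections overlapped (0.364 to 0.404 and 0.359 to 0.393), and in bins 2 to 5 of that ranking they did not.

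**Figure D3:**
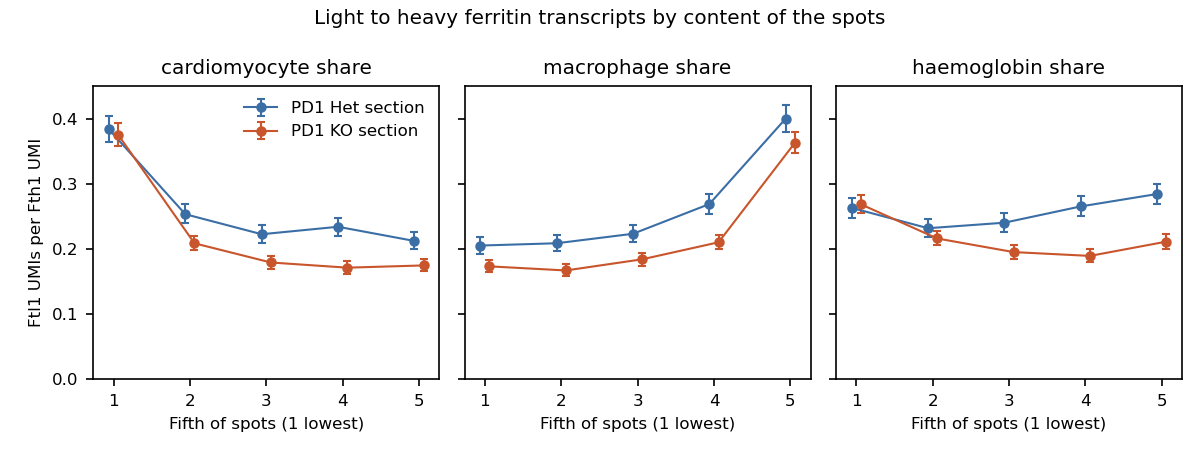
Ftl1 UMIs per Fth1 UMI (vertical axis, starting at 0) in 5 equal bins of spots ranked by cardiomyocyte, macrophage or haemoglobin share, with exact 95% intervals for counting error, for the PD1 Het (blue) and PD1 KO (orange) sections. The ratio reaches 0.400 and 0.363 in the macrophage-richest bin and 0.383 and 0.375 in the cardiomyocyte-poorest.

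Export was represented by Slc40a1 (ENSMUSG00000025993, chr1:45908068-45926523, minus strand), which was sparse. It had 88 UMIs, or 6.87 CPM (5.51 to 8.46), in the PD1 Het section, against 286, or 12.2 CPM (10.8 to 13.7), in the PD1 KO section. It was seen in 79 and 225 spots, at most 3 and 4 UMIs in each, so most spots of both sections held none. The intervals of the sections do not overlap, and the CPM ratio was 1.77 (1.39 to 2.28). The relative log2 ratio was 0.49 (0.14 to 0.85), under the 1.5-fold mark. By macrophage share, the PD1 KO section had 29 UMIs (5.81 CPM) in bin 1 and 81 (20.7 CPM) in bin 5, a relative log2 ratio of 1.63 (0.998 to 2.29). Spots thinned to 10000 UMIs gave 0.81 and 3 bins gave 0.77, while ranking by scar matrix share gave 0.53, under the 1.5-fold mark. The PD1 Het section had 9 UMIs in bin 1 and 24 in bin 5, too few to be set against the fold. By cardiomyocyte share, the PD1 KO section had 17.6 CPM in bin 1 and 9.74 in bin 5, from 71 and 46 UMIs, a relative log2 ratio of -0.83 (-1.39 to -0.27), and 3 bins gave -0.45.

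Haem breakdown was represented by Hmox1 (ENSMUSG00000005413, chr8:75093621-75100589, plus strand). It had 118 UMIs, or 9.21 CPM (7.62 to 11.03), in the PD1 Het section, against 185, or 7.87 CPM (6.77 to 9.08), in the PD1 KO section. It was seen in 84 and 148 spots, with up to 10 UMIs in a single PD1 Het spot and 5 in a PD1 KO spot. The intervals of the sections overlap, and the CPM ratio of 0.854 (0.674 to 1.09) spans 1. The relative log2 ratio was -0.56 (-0.90 to -0.21), within 1.5-fold. With macrophage share, bin 5 held the most Hmox1 in both sections, at 18.2 CPM (41 UMIs) and 16.1 CPM (63 UMIs). Bin 1 held 8.78 CPM and 4.61 CPM, from 23 UMIs in each section. These bins hold fewer than 100 UMIs together, so they were not set against the fold, and the counting intervals of the relative log2 ratios were 0.08 to 1.66 and 0.89 to 2.35.

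Haem synthesis was represented by its first enzyme and its last. Alas1 (ENSMUSG00000032786, chr9:106233455-106248654, minus strand) had 1155 UMIs, or 90.1 CPM (85.0 to 95.5), in the PD1 Het section, against 4207, or 179 CPM (174 to 184), in the PD1 KO section. It was seen in 586 and 822 spots, with a median of 1 and 4 UMIs per spot. The CPM ratio was 1.98 (1.86 to 2.12) and the relative log2 ratio 0.66 (0.56 to 0.75), above that of 95.9% of genes. Fech (ENSMUSG00000024588) had 1017 UMIs, or 79.4 CPM (74.6 to 84.4), and 2358, or 100.3 CPM (96.2 to 104). Its relative log2 ratio was 0.01 (-0.10 to 0.11), that of the median gene, so the first and the last enzyme of the pathway stood at different distances from it.

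Within the PD1 KO section Alas1 followed Tfrc. From bin 1 to bin 5 of cardiomyocyte share Alas1 was 138, 170, 185, 185 and 209 CPM. Along macrophage share it was 194, 196, 194, 171 and 129 CPM. The relative log2 ratios of bin 5 to bin 1 were 0.63 (0.48 to 0.79) and -0.79 (-0.95 to -0.63), and 3 bins gave 0.39 and -0.56, both under the 1.5-fold mark. The plain CPM ratio gave -0.58 for macrophage share, also just under it. In the PD1 Het section Alas1 lay between 79.4 and 101 CPM in every bin of both rankings, with ratios of 0.15 (-0.13 to 0.43) and -0.18 (-0.45 to 0.09). With 10 bins these ratios were 0.51 and -0.70, the second past the fold, against 1.02 and -0.90 for PD1 KO. Fech lay between 67.6 and 95.3 CPM over the same bins of the PD1 Het section, and between 92.8 and 107 CPM over those of the PD1 KO section, with no ratio past 1.5-fold.

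Counted against all genes, the members past the fold between bin 5 and bin 1 numbered 1 in each ranking by cell type of the PD1 Het section and 4 in each of the PD1 KO section. This contrast depends on the bins and the ranking: with 10 bins of macrophage share the count was 3 in each section, and with ranking by scar matrix share it was again 3 in each. The share of all genes past the fold with 10 bins was not counted, and that for scar matrix share is given above. With cardiomyocyte share, 1 of 5 members with at least 100 UMIs was lower in the PD1 Het section (Ftl1), where 8.39% of genes were lower and 2.8% higher. In the PD1 KO section 2 of 6 were higher (Tfrc, Alas1) and 2 lower (Ftl1, Slc40a1), beside 5.45% and 9.79% of genes. With macrophage share, Ftl1 alone of 5 was higher in the PD1 Het section, where 5.71% of genes were higher and 1.48% lower. In the PD1 KO section Ftl1 and Slc40a1 were higher and Tfrc and Alas1 lower, beside 7.39% and 2.78%. The PD1 KO section held more UMIs, and so allowed 8488 genes in the cardiomyocyte ranking where the PD1 Het section allowed 5290. The macrophage ranking rested on 4847 macrophage UMIs over 811 PD1 Het spots, against 11771 over 851 PD1 KO spots. The order of single spots was therefore less certain in the PD1 Het section, and the part of that in the contrast was not tested.

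With haemoglobin content, which marks retained blood, few genes of any kind passed the fold, and 0 members is near that share. Of the members with at least 100 UMIs, 0 of 5 (PD1 Het) and 0 of 6 (PD1 KO) lay 1.5-fold from the median gene between bin 5 and bin 1. Among all genes 0.816% were higher and 0.556% lower in the PD1 Het section, and 1.01% and 3.95% in the PD1 KO section. The haemoglobin genes themselves took 0.102% of UMIs in bin 1 and 2.58% in bin 5 of the PD1 Het section, and 0.145% and 2.18% in the PD1 KO section. Alas2, the erythroid form of the first haem enzyme, had 5 UMIs in bin 1 and 232 in bin 5 of the PD1 Het section, and 27 and 426 in the PD1 KO section. Tfrc, which red cell precursors carry in large amounts, went from 104 to 89.0 CPM and from 218 to 276 CPM, with relative log2 ratios of -0.13 (-0.39 to 0.13) and 0.52 (0.39 to 0.64). With 10 bins the PD1 KO value of Tfrc was 0.72, past the fold. Ftl1 went from 599 to 640 CPM for PD1 Het and from 491 to 362 CPM for PD1 KO, with relative log2 ratios of 0.19 (0.09 to 0.29) and -0.27 (-0.36 to -0.17). In the PD1 KO section the haemoglobin-poorest bin was also the richest in macrophage markers (0.0907% of UMIs, against 0.0330% in bin 5), and in the PD1 Het section these shares were 0.0448% and 0.0379%. The part of that in the Ftl1 values was not tested.

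The section differences were then read in bins of the same rank. The rankings divide the same spots, so their bins repeat 1 comparison of sections, and the share of all genes past the fold within a bin was not counted. Bins of the same rank also differ in content. The cardiomyocyte-poorest bin held 1.01% scar matrix and 0.0536% macrophage UMIs in the PD1 Het section, against 1.86% and 0.113% in the PD1 KO section. In each of the 5 bins of the cardiomyocyte, macrophage and haemoglobin rankings, Tfrc was at least 1.5-fold above the median gene of that bin, with relative log2 ratios of 0.61 to 1.36, 0.90 to 1.46 and 0.72 to 1.38. Ftl1 was at least 1.5-fold below it in 5 of 5 bins of each ranking, at -1.05 to -0.63, -0.97 to -0.73 and -1.09 to -0.63. Fth1 passed the fold downwards in 4 of 5 bins of each. Alas1 lay above 0 in 5 of 5 bins of each and passed the fold in 3, 4 and 3 of them. Its lowest value, 0.19 (-0.05 to 0.43), was in the macrophage-richest bin, which in the PD1 KO section held 0.164% macrophage UMIs against 0.106% in the PD1 Het section, since bins are set by rank within a section. Fech passed the fold in no bin (-0.28 to 0.27), and the values of Slc40a1 and Hmox1, from 9 to 81 UMIs per bin, varied most.

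**Figure D4:**
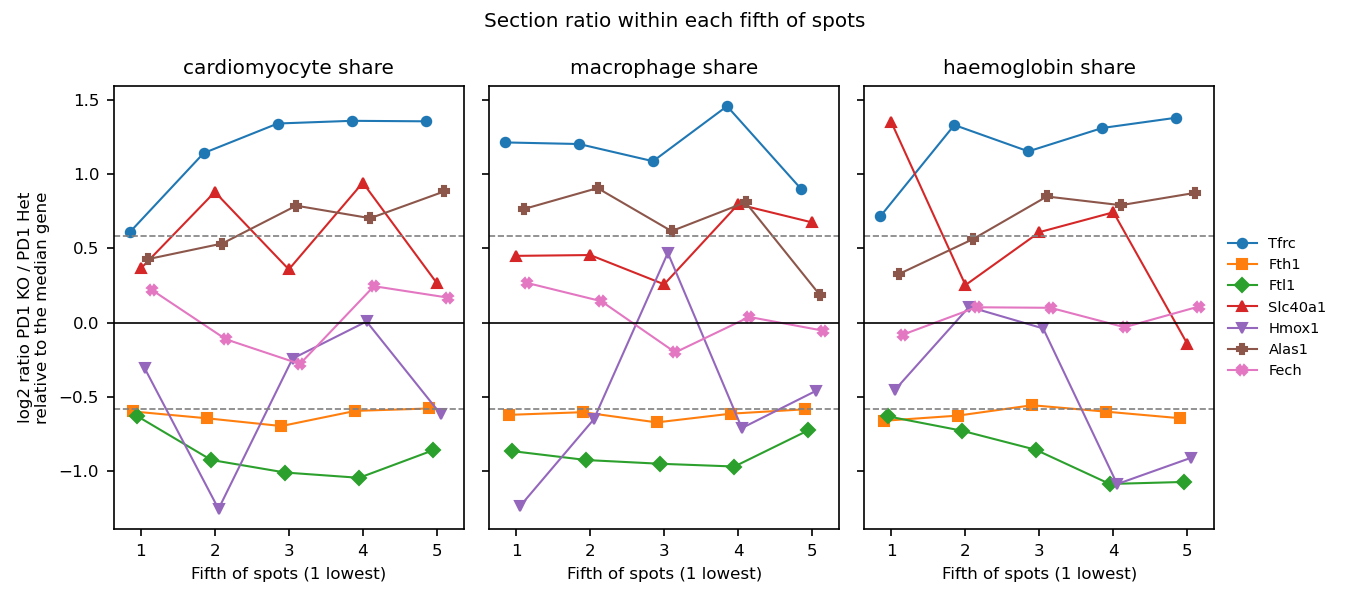
Relative log2 ratio of the PD1 KO to the PD1 Het section (vertical axis) of each gene within 5 equal bins of spots ranked by cardiomyocyte, macrophage or haemoglobin share, with the 1.5-fold mark dashed. Tfrc stays between 0.61 and 1.46 and Ftl1 between -1.09 and -0.63, while Hmox1 and Slc40a1, with the fewest UMIs, scatter.

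Spots were also divided at the section median of both shares, which shows them together. Ftl1 of the PD1 Het section was 787 CPM in the 213 spots poor in cardiomyocyte and rich in macrophage markers, and 476 CPM in the 213 spots of the opposite kind. In the spots poor in both markers it was 457 CPM, and in those rich in both 588 CPM. The PD1 KO order was 565 CPM (macrophage-rich alone), 356 (both), 314 (neither) and 302 (cardiomyocyte-rich alone). Spots poor in both were therefore among the low ones for Ftl1 in both sections, and the intervals of the 2 lowest classes overlapped in each. In the same order of classes (macrophage-rich alone, both, neither, cardiomyocyte-rich alone), Tfrc was 207, 268, 268 and 297 CPM in the PD1 KO section and 79.7, 84.2, 114 and 91.8 CPM in the PD1 Het section. Tfrc was thus lowest in the macrophage-rich, cardiomyocyte-poor spots of both, and highest in cardiomyocyte-rich, macrophage-poor spots for PD1 KO but in spots poor in both for PD1 Het. Alas1 was 145, 179, 176 and 210 CPM in the PD1 KO section and 77.3, 102, 93.9 and 88.8 CPM in the PD1 Het section. The Alas1 and Tfrc intervals of the lowest PD1 Het class overlapped with at least 1 other class, at 68.1 to 87.4 and 70.4 to 90.0 CPM.

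Genes around the 7 were drawn from 10 lists of iron and haem biology. Without the members, 46 of the 54 listed genes had at least 100 UMIs, 1 of them lay 1.5-fold above the median gene and 0 below, and their median relative log2 ratio was 0.01. Of all genes 5.5% lay above and 3.3% below, and for 46 genes the counts are near those shares. The 1 gene was Ireb2, an iron regulatory protein that binds the hairpins shown above, with 305 and 1071 UMIs (23.8 and 45.5 CPM) and a relative log2 ratio of 0.60 (0.42 to 0.79). The other iron regulatory protein, Aco1, gave -0.06 (-0.25 to 0.14).

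Uptake had 6 of 8 genes with at least 100 UMIs, with 1 above the fold, Tfrc itself, and 0 below. Storage had 5 of 6, with the ferritin chains below and 0 above, and the iron chaperones Pcbp1 and Pcbp2 gave 0.05 and 0.03. Export had 3 of 4 and 0 past the fold. Hamp, the gene for hepcidin, which removes ferroportin from the cell surface, had 0 and 1 UMIs. Haem synthesis had 9 of 9, with Alas1 above and 0 below. Haem breakdown and export had 7 of 7 with 0 past the fold, and its most abundant gene, Hmox2, the constitutive haem oxygenase, gave -0.15 (-0.29 to -0.01). Haemoglobin and haem scavenging had 2 of 5 with 0 past the fold, led by Lrp1 at -0.23 (-0.34 to -0.13). In that list the haemoglobin receptor Cd163 had 17 and 15 UMIs and haptoglobin (Hp) 45 and 16.

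The 9 genes of mitochondrial iron and iron-sulphur clusters all had at least 100 UMIs, with 0 past the fold, and the most abundant, Glrx5, gave -0.33 (-0.41 to -0.25). The 3 regulators of ferritin and haem oxygenase were within the fold too. NRF2 (Nfe2l2), which activates ferritin and Hmox1 transcription, gave 0.20 (0.05 to 0.35). Of 7 NRF2 targets 6 had at least 100 UMIs and 0 passed the fold, and Txnrd1, the most abundant, gave 0.02 (-0.14 to 0.18). Most pathway partners of the 4 member genes past the fold thus lay within it, as did 10447 of all 11455 genes. That count rests on the median shift, since the plain CPM ratio put 8 partners past the fold. The share of all genes past the fold under the plain CPM ratio was not counted.

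**Figure D5:**
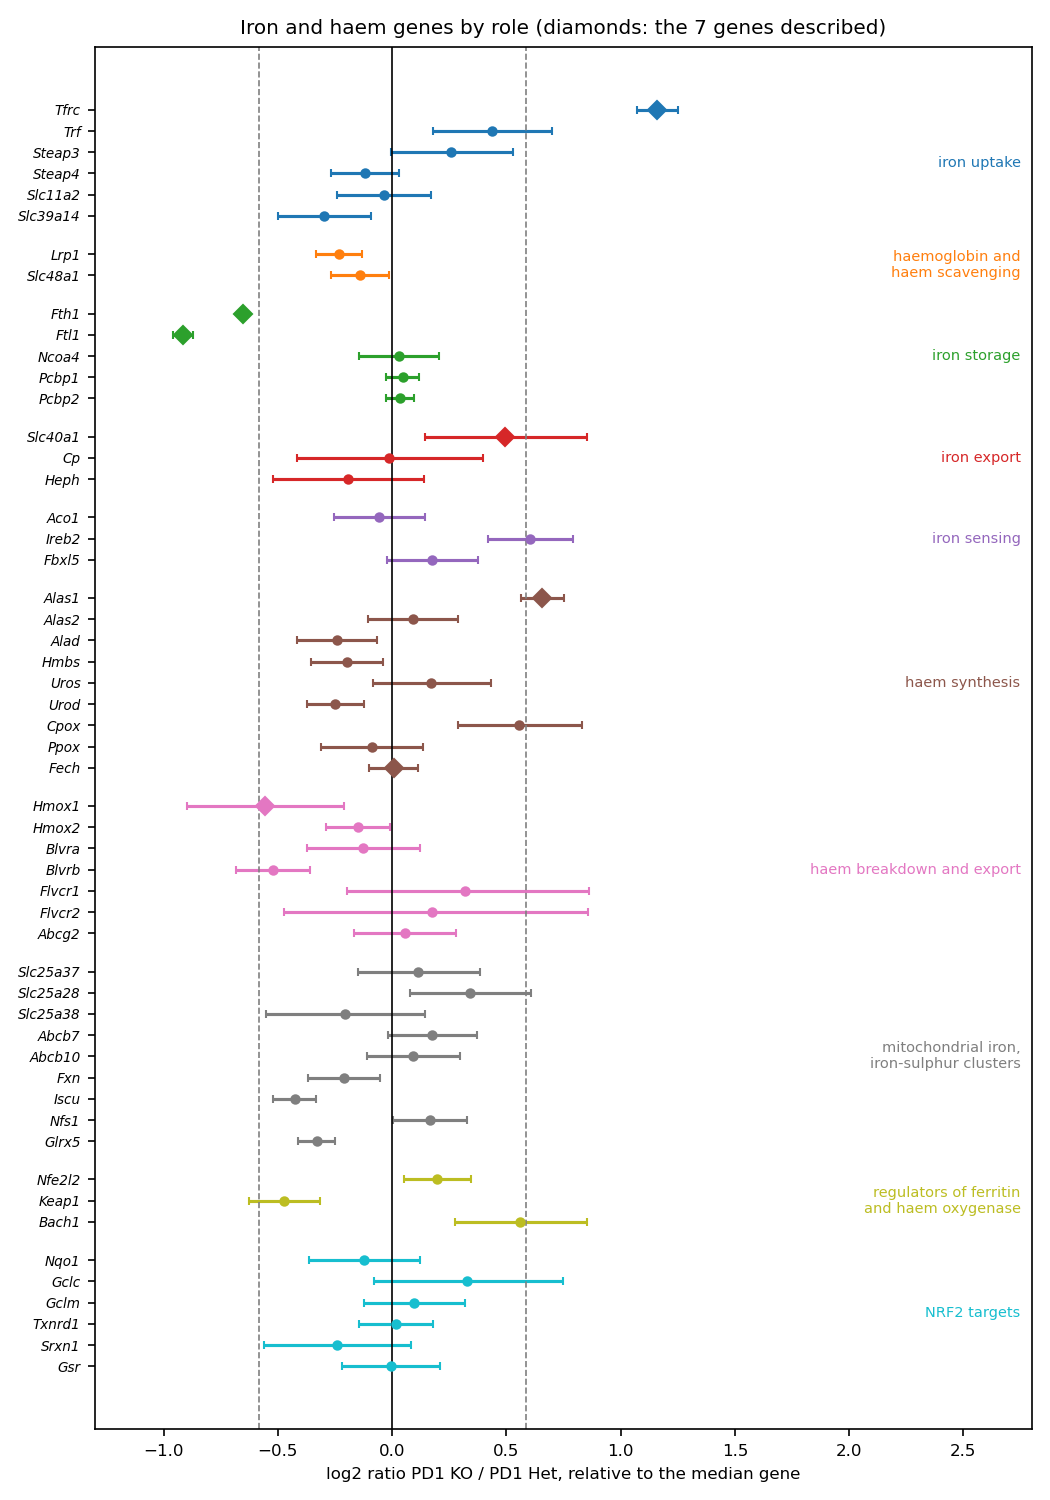
Relative log2 ratio of the PD1 KO to the PD1 Het section (horizontal axis) for each iron or haem gene with at least 100 UMIs, grouped by role, with exact 95% intervals for counting error, the 7 genes as diamonds and the 1.5-fold mark dashed. Tfrc (1.16), Alas1 (0.66) and Ireb2 (0.60) lie right of the dashed lines and Fth1 (-0.65) and Ftl1 (-0.92) left of them.

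Other features moved with the section ratio over all genes. The 10% of genes with the shortest transcripts, which include Ftl1, had a median relative log2 ratio of -0.19, with 9.78% of them 1.5-fold below the median gene, and the like group by length that includes Tfrc had a median of 0.06. The 10% most abundant genes, which include Tfrc, Fth1, Ftl1 and Alas1, had a median of -0.16, with 1.48% above and 5.59% below. The 77 ribosomal protein genes, also short and abundant, had a median of -0.46, and mitochondrial genes -1.06. Macrophage markers summed to 378 CPM in the PD1 Het section, against 500.5 CPM in the PD1 KO section. The relative log2 ratio of that sum was 0.07. Of the 13 macrophage markers with at least 100 UMIs, 2 lay 1.5-fold above the median gene and 1 below, with a median of -0.06. All 7 resident macrophage genes were detected and summed to 108 and 88.2 CPM, with 4 of the 5 that had at least 100 UMIs 1.5-fold below the median gene. All 8 erythroid markers were detected and summed to 56.4 and 67.7 CPM, a relative log2 ratio of -0.07, with 0 of the 3 that had at least 100 UMIs past the fold. The 10 scar matrix genes summed to 5886 and 8378 CPM, a relative log2 ratio of 0.18, with 2 of 10 at least 1.5-fold above the median gene. All 5 mast cell markers were detected and summed to 51.1 and 38.6 CPM, with 4 of 5 at least 1.5-fold below it. All 5 neutrophil markers were detected and summed to 12.1 and 9.10 CPM, with both of those that had at least 100 UMIs below it. The parts of transcript length, abundance and these cells in the members' section differences were not tested.

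Finally, for each member with at least 500 UMIs, the 3 genes most like it in place were sought among 4567 genes. Spots of each section were divided into 25 pools by cardiomyocyte and then macrophage share, and likeness was the smaller of the sections' Pearson r of log2(CPM + 1) over the 25 pools. The pools share a library and were cut by cardiomyocyte and macrophage markers. Genes that follow either marker set therefore come out alike by construction, and these values only describe. Tfrc was most like Ckmt2, the sarcomeric mitochondrial creatine kinase (r = 0.66 in the PD1 Het section, against 0.91 in the PD1 KO section), followed by Myoz2, a Z-disc protein, and Ndufa1, a subunit of respiratory complex I. Alas1 was most like Hrc, a calcium-binding protein of the sarcoplasmic reticulum (0.65 and 0.85), followed by Mrpl28 and the M-band gene Myom1. Ftl1 was most like Apoe, an apolipoprotein that macrophages make in quantity (0.93 and 0.93), followed by Tmsb4x, a thymosin that binds actin (0.93 and 0.96), and Rps12, a ribosomal protein. Fth1 was most like Pfdn5 (0.72 and 0.72), Slk and Mtch2, and Fech most like Prmt1 (0.46 and 0.62), Rbm5 and Skp1a, so neither led with genes of a single cell type. Between members, Tfrc and Ftl1 gave r = -0.58 and -0.84, and Tfrc and Alas1 0.33 and 0.84.

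The promoters of Tfrc and Alas1, which had like patterns in the PD1 KO section, were searched in the RefSeq windows of 250 bases before to 50 after the gene start (GRCm38.p6), which hold 4 of the 7 members. Alas1 had the palindromic core bound by NRF1, a regulator of mitochondrial genes, spelled in capitals in its stretch, which occurs in 0.971% of all 32851 windows. Tfrc had ACGTG, the core of hypoxia response elements, which is common at 19.6% of windows counting both strands. TGACNNNGC, the core of antioxidant response elements, occurs in 12.4% of windows on either strand and in 0 of the 4 members' windows. The stretches are shown with the match in capitals, at chr9:106247906-106247935 (minus strand) and chr16:32608882-32608911 (plus strand), and a match is a description, not a site.
Alas1: cgcacccaagGCGCATGCGCggcggtcact
Tfrc: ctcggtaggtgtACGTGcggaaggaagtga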

How the data were processed

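The authors deposited 1 matrix of raw UMI counts per section, with Space Ranger 1.1.0 named per the file headers, and the submitters' processing notes name the builds mm10 and GRCm38. For the annotation release, aligner settings and the rule that kept spots over tissue, details were not given in the sources used. The 7 genes, the 10 iron and haem lists and the marker lists were chosen with earlier results of these data known. Spots with at least 500 UMIs were kept and UMIs summed per section or bin. Levels are CPM of all gene UMIs with exact 95% Poisson intervals, and ratios have exact conditional intervals, both covering counting error only. Ratios were divided by that of the median gene among genes with at least 100 UMIs in the sets compared, and a ratio 1.5-fold from it was counted as called. A UMI count of 0 was taken to allow 3 counts. From each wider list, genes past the fold were named, or else the one with most UMIs; further genes of those lists (Aco1, Pcbp1, Pcbp2, Hamp, Cd163, Hp) were named for their role. The scripts were tested on simulated data. No doublet caller was run on spots. Sequences came from GENCODE transcripts (GRCm38) and RefSeq windows. Python 3.11.15, numpy 2.4.6, scipy 1.17.1, pandas 2.3.3, matplotlib 3.10.9 and R 4.3.3 were used, with edgeR 4.0.16 for TMM factors only. Alternatives covered scaling, filters, fold, number of bins, spot weights and thinning to 10000 UMIs.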

Additional observations from a re-analysis of the deposited data

Results flagged for a closer look

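Ftl1 lay on opposite sides of the median gene in the sections when spots were ranked by haemoglobin share. From the haemoglobin-poorest to the haemoglobin-richest bin its relative log2 ratio was -0.27 in the PD1 KO section and 0.19 in the PD1 Het section. Both were within 1.5-fold, the sections are single, and the difference between them was not tested.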

How the results depend on the processing

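Of 428 alternative values, only those of a gene ratio past the fold could turn a called direction, and none did. The rest were counts, ferritin ratios, the members' median and ratios within the fold. Some ratios within the fold changed sign, such as Fech between sections, which kept it under 9 of 12. Tfrc, Ftl1 and Alas1 lay 1.5-fold from the median gene between sections under 12 of 12 alternatives. Their relative log2 ratios were 1.11 to 1.49, -0.94 to -0.59 and 0.61 to 0.99. Under the plain CPM ratio Ftl1 was only just past the mark. Fth1 passed the fold under 10 of 12 (-0.66 to -0.32), Slc40a1 under 3 (0.48 to 0.82) and Hmox1 under 0 (-0.56 to -0.23). The plain CPM ratio, with no median shift, gave a members' median of 0.34, 8 other iron and haem genes past the fold in place of 1, 0 members in the PD1 Het cardiomyocyte ranking in place of 1, 2 in the PD1 KO macrophage ranking in place of 4 and 1 in the PD1 KO haemoglobin ranking in place of 0. A total without mitochondrial genes gave a median of 0.16 and 4 other genes. With the cardiomyocyte list removed too, it gave 1 in the PD1 KO haemoglobin ranking. A 1000 UMI filter for the median gene gave 3 other genes, as did leaving out the haemoglobin-richest spots. Leaving out those spots also gave 5 members between sections in place of 4, with Slc40a1 past the fold at 0.69. The lower fold that was tried gave 10 other genes and a fold of 2 gave 0. A fold of 2 left 1 member between sections, 0 in both cardiomyocyte rankings, 0 for PD1 Het and 1 for PD1 KO with macrophage share. With 3 bins the cardiomyocyte counts were 0 (PD1 Het) and 1 (PD1 KO). With 10 bins the macrophage count was 3 in both sections and the PD1 KO haemoglobin count 1. Ranking by scar matrix share, added after the data were seen, gave 3 in both. The Ftl1 to Fth1 ratio was 0.267 and 0.230 with equal weight per spot, 0.250 in the PD1 Het section without the haemoglobin-richest spots, and 0.224 in the PD1 KO section with Ftl1-ps1 added, also chosen after the data were seen. The cause of these moves was not tested. Among the alternatives, the share of all genes past the fold was counted only for the scar matrix ranking. Thinning kept 759 of 811 and 839 of 851 spots. Depth limits Slc40a1 and Hmox1 most, since single bins hold few of their UMIs. No paired analysis was possible because each group has 1 section.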
